A study of Mus musculus with 13 samples.

Results

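The immunoglobulin and B-lineage genes described here are 10 of the 36109 genes listed in the RNA-seq of Hmox2+/+ and Hmox2-/- mice. They were named one by one, with earlier results of the same libraries known: 5 heavy-chain constant genes (Ighm, Ighg2c, Ighg2b, Ighg1 and Igha), the kappa light-chain constant gene Igkc, the joining chain gene Jchain, the receptor partners Cd79a and Cd79b, and Ms4a1, which encodes CD20. RNA came from aortic endothelial cells (ECs) of Hmox2+/+ (WT) and Hmox2-/- (KO) mice, with 3 libraries each, and from whole hearts, with 4 WT and 3 KO libraries, and all 4 groups breathed room air. Hmox2 encodes heme oxygenase-2, the constitutive heme-degrading enzyme, and the KO mice lack it in every cell. EC RNA was lysate washed out of the aortic lumen without sorting, and strain, sex and exact age are not given for the sequenced mice, which the study calls young. The aim of the study was to see what loss of Hmox2 does to the vessel wall and the heart. The genes were chosen with the genotype differences in view, in particular the absence of Ighg2c counts in WT hearts, so their WT and KO levels are given below as a description and without a test.

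B cells carry a membrane-bound antibody as antigen receptor, in which paired heavy and light chains signal through Cd79a and Cd79b. A resting B cell makes membrane IgM, and after activation the heavy-chain locus can be recombined so that a constant gene farther along, such as an Ighg gene or Igha, replaces Ighm. Plasma cells, the secreting end stage, turn off Ms4a1 and much of the receptor machinery and make very large amounts of secreted heavy chain, light chain and J chain, the small protein that links IgM pentamers and IgA dimers. Endothelial cells and cardiomyocytes are not known as antibody producers. In bulk libraries fewer cells of a type and less RNA per cell cannot be told apart.

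Total estimated counts ranged from 26067147 to 31619776 except for WT heart 1, which held 7268626. Hmox2 itself was 63.9 to 76.2 CPM in WT ECs and 12.6 to 14.8 CPM in KO ECs, and 37.3 to 42.5 CPM in WT hearts and 7.54 to 8.91 CPM in KO hearts, so every library matched its genotype label. CPM are counts scaled to a common depth within a tissue (TMM). EC KO 2 and EC KO 3 nearly lacked the Y-linked gene Ddx3y (1.04 and 0.92 CPM), which was at 37.0 to 86.5 CPM in the other 11 libraries, all 3 KO hearts among them. Some EC results that rest on these 2 libraries are also given without 1 or both of them. Endothelial markers summed to 2979 to 4357 CPM in WT ECs and 5325 to 6487 CPM in KO ECs, but adipocyte markers were higher still (6785 to 10735 and 7050 to 7280 CPM), and cardiomyocyte markers were present in WT ECs (109 to 419 CPM) and nearly absent in KO ECs (5.92 to 10.1 CPM). No pair of libraries held identical counts.

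The 5 heavy-chain genes lie in a row on the minus strand of chromosome 12 (GRCm39), with Ighm at chr12:113382178-113386350, Ighg1 at chr12:113288860-113294143, Ighg2b at chr12:113266585-113271553, Ighg2c at chr12:113248945-113252552 and Igha at chr12:113218450-113223856. The Ighg genes are close relatives, and whether a read can be told apart depends on where it falls. The hinge exons, which form the flexible joint of each antibody and differ most between the subclasses, are shown to make that visible. Capitals mark the in-frame cysteine codons that can bridge the heavy chains, and every base of these exons lies in a 31-base word found in no other gene.
Ighg2c hinge exon, chr12:113251883-113251945: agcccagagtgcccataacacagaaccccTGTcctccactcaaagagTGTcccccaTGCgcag
Ighg2b hinge exon, chr12:113270881-113270946: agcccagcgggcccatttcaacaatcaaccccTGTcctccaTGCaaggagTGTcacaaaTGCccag
Ighg1 hinge exon, chr12:113293464-113293502: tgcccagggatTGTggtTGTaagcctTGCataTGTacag
Over the whole gene, 14.98% of the 31-base words of Ighg2c were shared with another gene, nearly all of them with Ighg2b (14.4%), against 9.29% of the words of Ighg2b and 1.72% of those of Ighg1. Ighm, Igha and Igkc shared none.

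The membrane and the secreted form of Ighm differ in their last coding piece, and the counts of both forms are compared below. The tail of the secreted form holds a single cysteine codon, in capitals, which is the residue that joins IgM subunits and J chain. The first membrane exon, spliced on instead, holds none and encodes the start of the membrane anchor.
Ighm secreted tail, chr12:113384490-113384548: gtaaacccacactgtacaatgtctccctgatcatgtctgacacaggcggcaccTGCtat
Ighm first membrane exon, chr12:113382573-113382688: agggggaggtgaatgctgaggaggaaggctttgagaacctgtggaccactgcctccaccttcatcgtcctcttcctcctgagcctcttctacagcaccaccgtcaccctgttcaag

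The heavy and the kappa variable gene with the most counts over the KO ECs are described below. Variable genes encode the antigen-binding end of the chain and are joined to the constant part by recombination. Both V exons are shown with capitals for bases that lie in 31-base words of that gene alone.
Ighv11-2 V exon, first 300 bases, chr12:114011868-114012167, minus strand: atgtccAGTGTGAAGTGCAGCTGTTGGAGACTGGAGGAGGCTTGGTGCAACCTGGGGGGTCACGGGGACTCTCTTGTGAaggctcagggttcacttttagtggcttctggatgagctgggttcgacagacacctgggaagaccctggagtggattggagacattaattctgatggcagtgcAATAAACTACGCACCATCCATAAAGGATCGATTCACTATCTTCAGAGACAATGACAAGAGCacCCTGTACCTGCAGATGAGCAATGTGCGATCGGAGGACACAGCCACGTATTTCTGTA
Igkv14-126 V exon, chr6:67873329-67873626, plus strand: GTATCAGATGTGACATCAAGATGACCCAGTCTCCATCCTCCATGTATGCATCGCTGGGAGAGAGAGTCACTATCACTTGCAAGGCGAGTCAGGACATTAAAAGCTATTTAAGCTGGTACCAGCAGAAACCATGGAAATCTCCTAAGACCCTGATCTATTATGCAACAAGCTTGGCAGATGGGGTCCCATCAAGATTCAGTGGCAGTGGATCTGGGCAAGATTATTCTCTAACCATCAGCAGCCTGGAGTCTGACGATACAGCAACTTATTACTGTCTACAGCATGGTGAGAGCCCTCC
Ighv11-2 had 190 such bases of the 300 shown, since 50.6% of its words recur in Ighv11-1, which was at 0 counts in all 13 libraries. All 298 bases of the Igkv14-126 exon were its own, and 5.79% of the words of the whole transcript were shared.

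In heart tissue the difference between the genotypes lay in the IgG2 genes. Ighg2c, the constant gene of IgG2c, had 264, 237 and 149 counts in KO hearts 1 to 3 and 0 counts in each of the 4 WT hearts. The levels were 7.76, 7.17 and 4.46 CPM in KO hearts (6.46 ± 1.76, SD, n = 3), while 3 counts in a WT heart would have been 0.104 to 0.446 CPM. With this floor of 3 counts per library, the mean of the KO hearts was 33.5 times the mean floor of the WT hearts (0.193 CPM). The ratio is smaller against WT heart 1 alone, whose floor is the highest (0.446 CPM). Ighg2c counts were present in all 3 WT EC libraries (19, 199 and 59). The reference genome carries the Ighg2c form of this gene, in place of which some mouse strains carry Ighg2a, and the form carried by these mice was not tested.

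Ighg2b, the neighboring IgG gene, had 16, 23 and 6 counts in KO hearts and 0, 3, 0 and 0 counts in WT hearts. The KO libraries all lay above the WT libraries, at a rate 13.4 times as high with a counting interval of 4.32 to 67.6 (95%). In KO hearts 1 to 3 the membrane transcript took 100%, 78.6% and 100% of the Ighg2b counts (Wilson intervals 80.6% to 100%, 58.1% to 90.3% and 61.0% to 100%). The membrane transcript of Ighg2c took 4.43%, 27.4% and 4.66% of its counts in the same hearts (intervals 2.62% to 7.78%, 22.1% to 33.4% and 2.29% to 9.38%). The listed membrane and secreted transcripts are 2566 and 1114 bases long for Ighg2b, and 1214 and 1111 bases for Ighg2c. A longer transcript yields more counts, so the count shares of the 2 genes are not on equal terms. Intervals cover counting error only, and estimated counts split between alike transcripts carry an error beyond it. Ighg1 was at 0 counts in all 7 hearts.

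IgG2c made up a large part of the heavy-chain RNA of KO hearts. Of all heavy-chain constant counts, Ighg2c took 60.7% of 435 in KO heart 1 (Wilson interval 56.0% to 65.2%), 31.9% of 744 in KO heart 2 (28.6% to 35.3%) and 48.9% of 305 in KO heart 3 (43.3% to 54.4%). WT hearts held 40 to 161 heavy-chain counts, none of them Ighg2c, which allows a share of up to 8.76% in WT heart 1 and 2.33% to 2.96% in the other 3. Ighm took 74.2% to 94.4% in WT hearts and 34.02% to 48.7% in KO hearts.

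**Figure D1:**
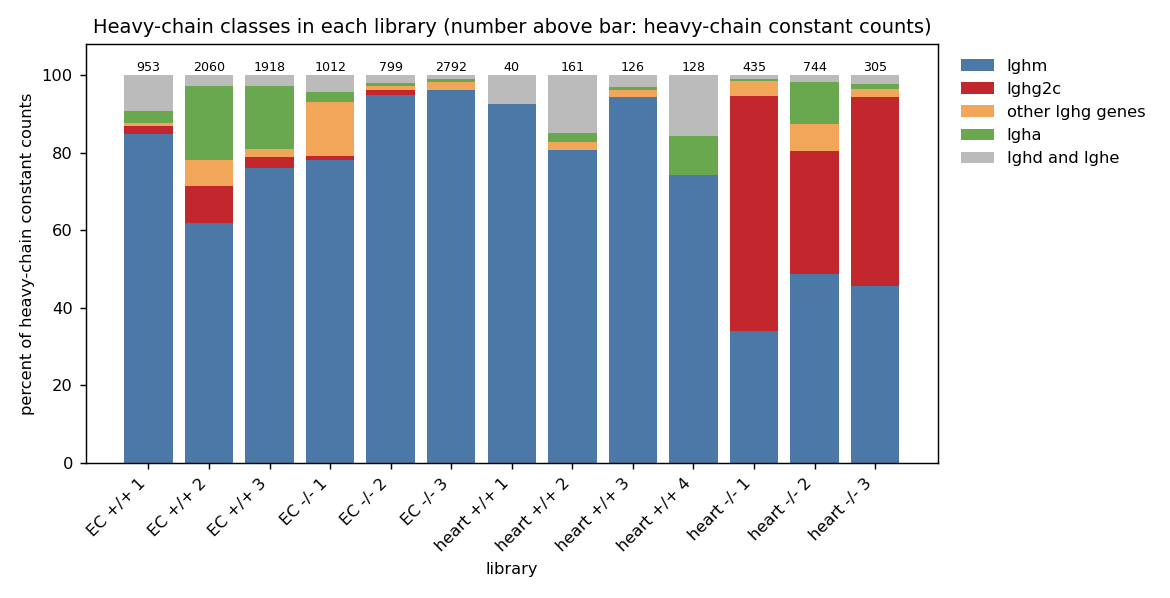
Share of heavy-chain constant counts by class (y axis, percent) in each of the 13 libraries (x axis), with the number of heavy-chain constant counts above each bar. Ighg2c fills 31.9% to 60.7% of the bar in the 3 KO hearts and 0% in the 4 WT hearts, while Ighm fills most of every EC bar.

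Light-chain RNA differed among the KO hearts. Igkc, the constant gene of the kappa chain (chr6:70703419-70703950), had 37, 223 and 19 counts in KO hearts 1 to 3 and 2, 26, 12 and 10 counts in WT hearts. KO heart 2 stood alone at 6.75 CPM, while KO hearts 1 and 3 were at 1.09 and 0.57 CPM beside 0.297 to 0.900 CPM in WT hearts, so the groups overlapped. In TPM, which is per length of transcript, Ighg2c was 2.69 and 2.96 times Igkc in KO hearts 1 and 3 and 0.392 times Igkc in KO heart 2. In the 6 EC libraries this ratio was 0.002 to 0.093. All light-chain genes summed to 0.303 and 0.202 times the TPM of all heavy-chain genes in KO hearts 1 and 3 and to 1.11 times in KO heart 2, compared to 0.315 to 0.690 in WT hearts and 0.639 to 1.79 in ECs. Variable genes, which every complete antibody transcript contains, had 12 and 10 counts in KO hearts 1 and 3 and 81 counts in KO heart 2.

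**Figure D2:**
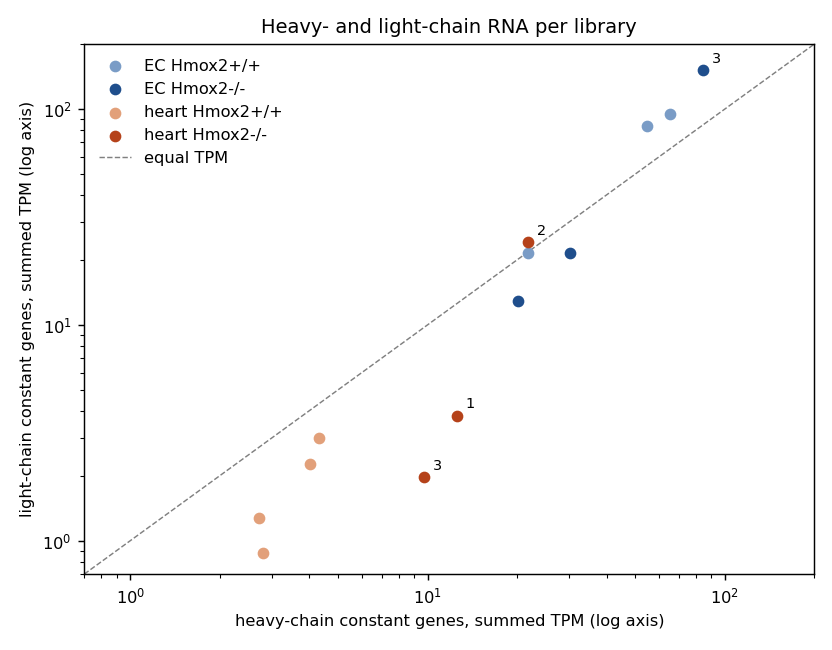
Summed TPM of the light-chain constant genes (y axis, log) against that of the heavy-chain constant genes (x axis, log), 1 point per library, with replicate numbers beside the KO hearts and EC KO 3 and a dashed line at equal TPM. KO hearts 1 and 3 lie below the line, at 0.303 and 0.202 times, and KO heart 2 lies at 1.11 times.

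The remaining members were low in hearts. By CPM, KO heart 2 was the highest of the 7 hearts for 5 of them (Ighm, Igha, Jchain, Cd79a and Cd79b) but not for Ms4a1. Ighm was 37, 130, 119 and 95 counts in WT hearts and 148, 362 and 139 counts in KO hearts, which is 4.47 ± 0.87 CPM (SD, n = 4) and 6.49 ± 3.87 CPM (SD, n = 3). The log2 fold change of Ighm was 0.57 with all libraries and -0.04 without KO heart 2. Igha, the gene of mucosal IgA, had 0, 4, 1 and 13 counts in WT hearts and 2, 81 and 4 counts in KO hearts. Jchain had 3 to 6 counts in WT hearts and 10, 41 and 5 counts in KO hearts.

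The receptor genes and Ms4a1 stayed near the detection limit in hearts. Cd79a had 3 to 6 counts in WT hearts and 8, 21 and 5 in KO hearts. Cd79b had 0 to 7 counts and 12, 16 and 4 counts. Ms4a1, which is lost in plasma cells, had 2 to 9 counts in WT hearts and 8, 8 and 10 counts in KO hearts, with mean levels of 0.242 ± 0.098 CPM (SD, n = 4) and 0.260 ± 0.038 CPM (SD, n = 3). For these 3 genes the WT and KO hearts overlapped.

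Counted over the fit, 3 of the 10 members passed the filter on low counts in hearts (Ighm, Ighg2c and Igkc), and 2 of them were called higher in KO. A call required both an adjusted p not above 0.05 and a change of 1 or more on the log2 scale. Of the 13816 genes tested, 2.66% were called higher, 4.05% lower and 6.71% in either direction. The libraries did not overlap, with KO above WT, for 2 members (Ighg2c and Ighg2b), compared to 20.6% of the genes tested. Since the members were chosen on this contrast, and Ighg2c passed the filter through KO hearts alone, these counts describe the choice. Igkc no longer met the criteria without KO heart 2 (log2 fold change 0.62 against 2.36), or without WT heart 1, 3 or 4 (2.16 to 2.28).

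Erythroid markers moved with the genotype in hearts. All 5 erythroid markers kept by the filter, of 7 listed, were called higher in KO hearts, beside 2.66% of all genes tested. The list summed to 183 to 341 CPM in WT hearts and 888 to 1457 CPM in KO hearts. The T cell list was at 3.28 to 4.16 CPM in WT and 1.96 to 3.01 CPM in KO hearts. This difference lay mostly in Cd247, 1 of the 2 markers kept (log2 fold change -1.66, edgeR adjusted p = 0.00666). Its mean was 1.85 CPM in WT and 0.545 CPM in KO hearts. Cd4, the other marker kept, was at 0.688 and 0.664 CPM, and the remaining markers were near the detection limit. The neutrophil list summed to 1.59 to 1.98 CPM in WT and 1.31 to 1.44 CPM in KO hearts. Hearts and vessels had been rinsed with saline to clear them of blood before harvest. The part of blood in the Ighg2c counts was not tested.

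**Figure D3:**
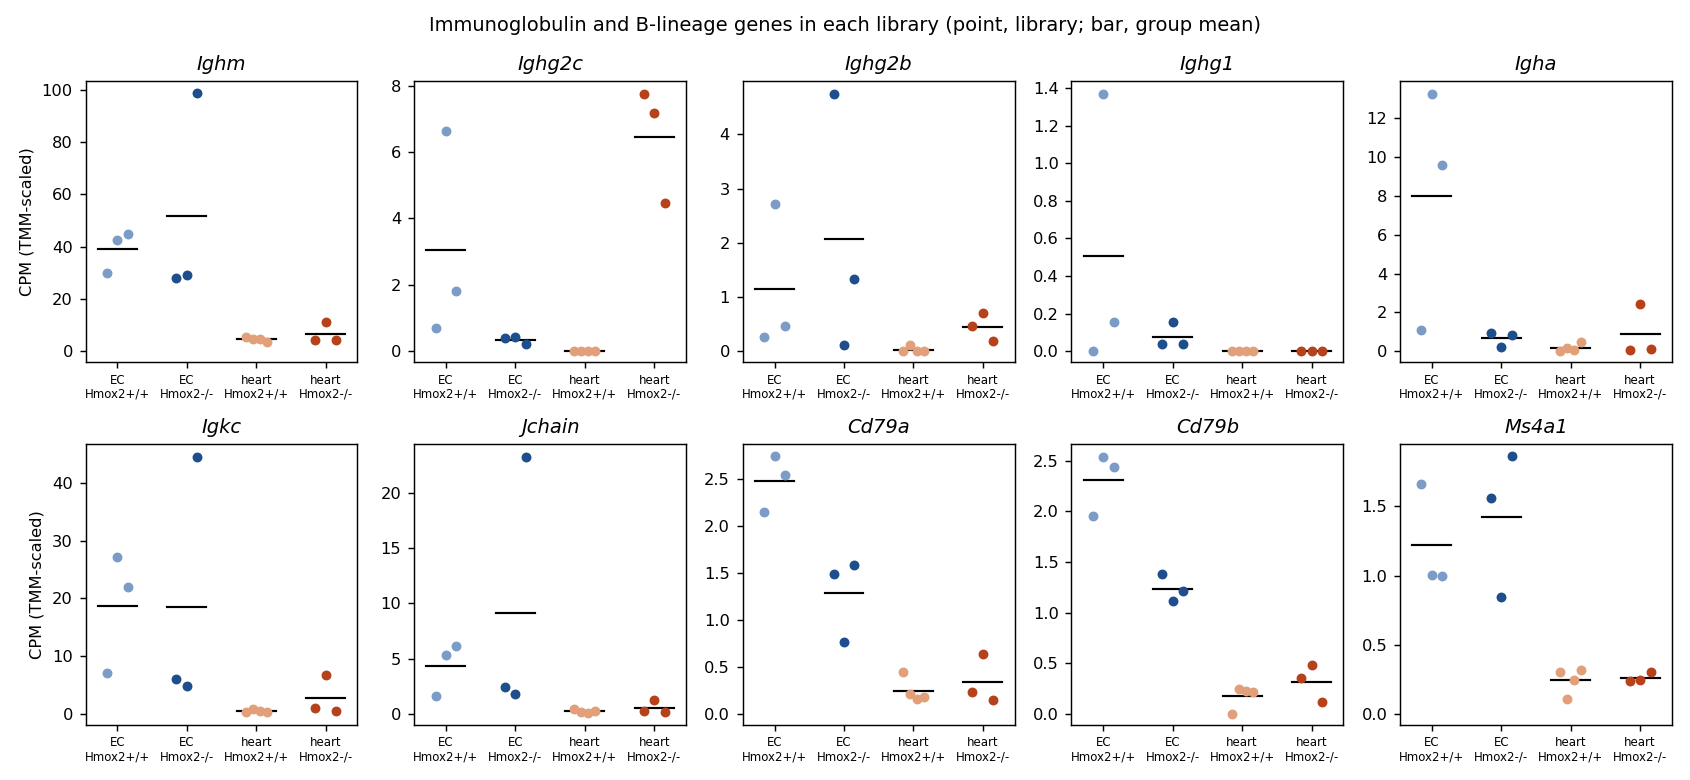
CPM (y axis, linear, TMM-scaled within tissue) of the 10 members in ECs and hearts of both genotypes, with 1 point per library and a bar at the group mean. Ighg2c separates KO hearts (4.46 to 7.76 CPM) from WT hearts (0), and EC KO 3 is the highest library for Ighm, Igkc and Jchain.

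In ECs the IgG2c and IgA genes went the other way. Ighg2c had 19, 199 and 59 counts in WT ECs and 11, 11 and 6 counts in KO ECs, which is 0.701, 6.65 and 1.82 CPM against 0.390, 0.422 and 0.221 CPM. Igha had 29, 397 and 311 counts in WT ECs and 27, 5 and 22 counts in KO ECs. Every KO library was below every WT library for both genes, but the margin was small for EC WT 1, where Igha was 1.07 CPM beside 0.956 CPM in EC KO 1. The fitted log2 fold changes were -3.14 for Ighg2c and -3.60 for Igha. Without EC WT 2, the library with the most of both, they were -1.87 and -3.02 and neither met the criteria. The number of members called lower was also 0 on leaving out EC KO 1, 2 or 3. It was 1 without EC WT 3 and 2 without EC WT 1. The T cell list summed to 347 CPM in EC WT 2, to 36.3 and 103 CPM in EC WT 1 and 3 and to 38.2 to 115 CPM in KO ECs, and the log2 fold changes of its 13 markers were -1.59 to -0.45 (1 with an unadjusted p under 0.05). The neutrophil list summed to 20.7, 94.7 and 127 CPM in EC WT 1 to 3 and 15.7, 12.6 and 53.6 CPM in EC KO 1 to 3. Smooth muscle markers summed to 3220 to 6272 CPM in WT and 1044 to 3556 CPM in KO ECs, with 2 of 5 called lower (3.89% of all genes tested). Of 8 cardiomyocyte markers 7 were called lower in KO ECs, and Ryr2 was at -1.39 (adjusted p = 0.063). The part of these cell types in the Ighg2c and Igha levels was not tested.

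Ighg2b and Ighg1 overlapped between the genotypes in ECs. Ighg2b had 7, 81 and 15 counts in WT ECs and 134, 3 and 36 counts in KO ECs. Its log2 fold change was 0.85 with all libraries, -0.66 without EC KO 1 and 2.49 without EC WT 2. Ighg1 had 0, 41 and 5 counts in WT ECs and 1, 4 and 1 in KO ECs, and 41 of the 46 WT counts came from EC WT 2.

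Ighm, Igkc and Jchain were highest in EC KO 3. The plasma cell list summed to 389 CPM there, beside 309 to 394 CPM in WT ECs and 487 and 422 CPM in EC KO 1 and 2. This list holds genes with broad expression such as Xbp1, so its sum does not track plasma cells alone. Ighm had 809, 1273 and 1456 counts in WT ECs and 791, 758 and 2681 counts in KO ECs. Igkc had 190, 813 and 708 counts in WT ECs and 170, 125 and 1211 counts in KO ECs. Jchain had 44, 158 and 199 counts in WT ECs and 67, 46 and 634 counts in KO ECs. For all 3 genes EC KO 3 was above every WT library, while EC KO 1 and 2 were below EC WT 2 and 3. The log2 fold changes were 0.41, -0.02 and 1.07 with all libraries and turned to -0.45, -1.78 and -1.07 without EC KO 3. Leaving out both libraries that lack Ddx3y gave -0.48, -1.63 and -0.87. Compared to Cd79a, Jchain was 15.3 times as abundant in TPM in EC KO 3 and 0.799 to 2.53 times in the other 5 EC libraries.

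For both receptor genes, which plasma cells make less of, every KO EC library lay below every WT EC library. Cd79a (chr7:24596740-24601622) had 58, 82 and 82 counts in WT ECs and 42, 20 and 43 counts in KO ECs, or 2.47 ± 0.30 and 1.28 ± 0.45 CPM (SD, n = 3 each). Cd79b (chr11:106202167-106205588) had 53, 76 and 79 counts in WT ECs and 39, 29 and 33 counts in KO ECs, or 2.31 ± 0.31 and 1.24 ± 0.14 CPM. The log2 fold changes were -0.95 and -0.90, or -0.73 and -0.74 without the libraries lacking Ddx3y, and did not meet the criteria. Ms4a1 (chr19:11227039-11243605) did not separate the groups, with 45, 30 and 32 counts in WT ECs and 44, 22 and 51 counts in KO ECs. EC KO 3, highest in Jchain, was also highest in Ms4a1 (1.87 CPM).

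Over the EC fit 9 of the 10 members passed the filter, all but Ighg1, and 2 met the criteria for a lower level in KO (Ighg2c and Igha) beside 3.89% of 15301 genes (9.28% in either direction). None met them for a higher level, beside 5.39%, with edgeR or DESeq2, and 4 had an unadjusted p under 0.05 in either direction. KO lay below WT in every library for 4 members (Ighg2c, Igha, Cd79a and Cd79b) and for 18.7% of the genes tested, and no member lay above, beside 22.0%. As in hearts, these counts describe genes chosen on the contrast itself, and nothing is read from them. With only EC KO 1 left of the KO libraries, in a fit that assumes this library to vary like the WT libraries, neither Ighg2c (-2.96) nor Igha (-3.06) met the criteria.

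Whether the Ighm RNA came as the membrane or the secreted form is a ratio within a gene, which the choice of members did not use. The membrane form took 76.4%, 56.3% and 46.3% of the Ighm counts in EC WT 1 to 3 (Wilson intervals 73.3% to 79.2%, 53.6% to 59.0% and 43.7% to 48.9%). In EC KO 1 to 3 it took 60.6%, 56.6% and 21.3% (57.2% to 64.0%, 53.0% to 60.1% and 19.8% to 22.9%). EC KO 3 thus had the largest secreted share. The group means, 59.7% ± 15.3 and 46.2% ± 21.6 (SD, n = 3 each), differed by less than their spread (two-sided exact permutation test p = 0.6, with 0.1 the smallest p possible).

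In hearts the membrane form took 56.0%, 86.9%, 100% and 89.4% in WT hearts 1 to 4 and 77.2%, 49.8% and 70.7% in KO hearts 1 to 3. The intervals were 40.9% to 71.3%, 80.0% to 91.7%, 96.9% to 100% and 81.7% to 94.2% in WT hearts and 69.6% to 83.1%, 44.6% to 54.9% and 62.5% to 77.5% in KO hearts. KO heart 2, which had the most Ighm, Igkc and Jchain of the hearts, also had the lowest membrane share. The means were 83.1% ± 18.9 (SD, n = 4) and 65.9% ± 14.3 (SD, n = 3), a difference of -17.2 points (two-sided exact permutation test p = 0.286, smallest possible 0.0286). For comparison, Igha was 0% to 6.28% membrane form in all 12 libraries with counts, and Ighg2c was 0% in all 6 EC libraries.

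**Figure D4:**
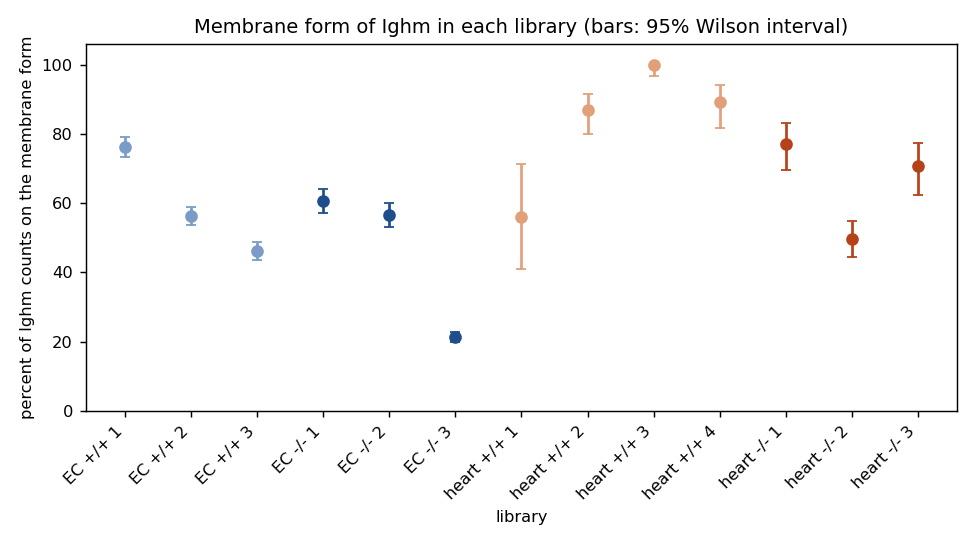
Percent of Ighm counts on the membrane transcript (y axis) in each library (x axis), with 95% Wilson intervals for counting error. EC KO 3 lies lowest at 21.3%, and the WT and KO libraries overlap in both tissues.

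The variable genes tell antibodies of different cells apart. Of 346 listed variable genes, 31 to 70 had at least 1 count in WT ECs and 25 to 45 in KO ECs. The leading gene took 10.1% to 18.8% of the variable-gene counts in WT ECs, namely Igkv10-94 in EC WT 1 (15.1%, Wilson interval 9.51% to 23.1%), Igkv14-111 in EC WT 2 (18.8%, 15.5% to 22.6%) and Igkv1-117 in EC WT 3 (10.1%, 7.66% to 13.4%). In KO ECs it took 28.5% to 55.0%. Igkv5-48 led in EC KO 1 with 31.5% of 181 counts (25.2% to 38.6%). Igkv14-126 led in EC KO 2 with 28.5% of 123 counts (21.2% to 37.0%) and in EC KO 3 with 55.0% of 1391 counts (52.4% to 57.6%). The interval of EC KO 2 overlapped those of EC WT 1 and EC WT 2. Shared words made up 66.6% of Igkv10-94 and 62.6% of Igkv1-117, but 5.92% of Igkv14-111, 0% of Igkv5-48 and 5.79% of Igkv14-126. The leading shares are thus not on equal terms, and the part of word sharing in them was not tested.

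Ighv11-2 and Igkv14-126, whose exons are printed above, were picked as the heavy and kappa variable genes with the most counts over the KO ECs. They took a larger share in each KO EC library than in any WT EC library. Since the choice used the KO counts, this is given as a description. The pairing of a VH11 heavy chain with a Vk14 light chain is known from B-1 cells, a self-renewing B cell subset, where it binds phosphatidylcholine. Igkv14-126 had 1, 5 and 7 counts in EC WT 1 to 3 and 15, 35 and 765 counts in EC KO 1 to 3. As a share of all Igkv counts this was 1.45%, 1.27% and 2.09% in WT ECs (upper Wilson bounds 7.76%, 2.94% and 4.25%) and 13.2%, 36.8% and 81.4% in KO ECs (lower bounds 8.14%, 27.8% and 78.8%). Ighv11-2 had 0, 1 and 0 counts in WT ECs (upper bounds of the share 16.1%, 9.61% and 6.21%) and 7, 13 and 266 counts in KO ECs, or 11.5%, 52.0% and 70.0% of the Ighv counts (intervals 5.67% to 21.8%, 33.5% to 70.0% and 65.2% to 74.4%). For Ighv11-2 the interval of EC KO 1 overlaps those of the WT libraries, so this share is not resolved from them at this depth. These intervals cover counting error only, and not the spread between libraries.

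Tested across all genes, 4 variable genes passed the filter in ECs, and Igkv14-126 was the only 1 that met the criteria (log2 fold change 6.08, SE 1.67, edgeR adjusted p = 0.0437). Its 1 to 7 counts in WT ECs were below the minimum, so it passed the filter through the KO ECs, where it is high, and the call is not independent of that. The number rests on EC KO 3, without which the log2 fold change was 2.69 (adjusted p = 0.1). Leaving out a WT library gave 5.67 to 6.51 with adjusted p of 0.0822 to 0.124, and leaving out both libraries that lack Ddx3y gave 1.88 (0.51). DESeq2 called 0 variable genes and gave no adjusted p for Igkv14-126. Without a filter on low counts Ighv11-2 was called as well (log2 fold change 7.82, adjusted p = 0.0153). Both genes were picked on their KO EC counts, so neither call is independent of the choice. EC KO 3 was also the library with the most Jchain and the lowest membrane share of Ighm. Bulk counts do not link a variable gene to a constant gene or the heavy to the light chain of a cell. In hearts neither gene had a count except for 3 counts of Igkv14-126 in KO heart 2.

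**Figure D5:**
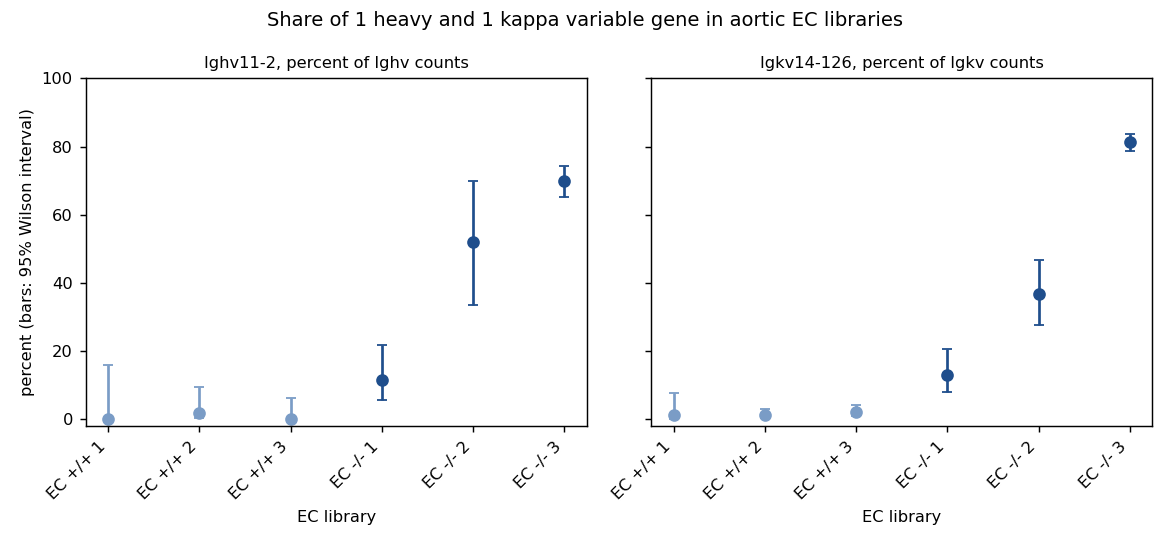
Ighv11-2 as percent of Ighv counts (left) and Igkv14-126 as percent of Igkv counts (right) in the 6 EC libraries, with 95% Wilson intervals. WT ECs lie at 0% to 1.82% and 1.27% to 2.09%, and KO ECs at 11.5% to 70.0% and 13.2% to 81.4%. Both genes were picked as the most counted of their kind over the KO ECs.

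Heart libraries held too few variable-gene counts for a test, and no variable gene passed the filter. WT hearts had 1 to 10 such counts in total. In KO heart 2, 40 variable genes shared 81 counts, and Igkv17-121 led with 21 counts (25.9%, Wilson interval 17.6% to 36.4%), although 46.3% of its words recur in Igkv17-127. KO hearts 1 and 3, with 264 and 149 Ighg2c counts, had 5 and 9 variable genes with a count, and no gene above 4.

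Between the tissues, members other than Ighg2c were compared. Their choice was not made on this contrast, though earlier results of these libraries were known. In WT mice, hearts were lower than ECs for all 7 that passed the filter, where 22.6% of 14777 genes were lower, 17.0% higher and 39.6% called in either direction. The log2 difference, heart minus EC, was -4.63 for Igha (SE 0.92, adjusted p = 0.00132), -4.38 for Igkc (SE 0.51, 3.74e-05), -3.73 for Jchain (SE 0.57, 2.35e-04) and -2.46 for Ighm (SE 0.19, 1.75e-06). It was -2.82 for Cd79a, -2.78 for Cd79b (adjusted p = 1.78e-04 and 4.17e-04) and -1.69 for Ms4a1 (adjusted p = 0.0103). Igha, Jchain, Cd79a, Cd79b and Ms4a1 had at most 13 counts in any WT heart and passed the filter through the ECs, which favors a lower call in hearts. Their calls are therefore given as a description. The 7 calls held in each of the 12 alternatives run, but most of these used the same filter. T cell and neutrophil lists were lower in WT hearts as well, in all 13 and all 8 markers tested. Apart from Cd247, Cd4 and Csf3r, these markers had at most 13 counts in any WT heart. They too passed the filter through the ECs, which favors a lower call.

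In KO mice 3 members were lower in hearts than in ECs, where 27.0% of 15114 genes were (20.6% higher, 47.6% in either direction). The log2 difference was -1.66 for Ms4a1 (adjusted p = 0.00694), -2.21 for Ighm (0.00719) and -3.24 for Jchain (0.0275). Ms4a1 and Jchain had 8 to 10 and 5 to 41 counts in KO hearts. Both passed the filter through the KO ECs, which favors a lower call in hearts, so their calls are given as a description. Without EC KO 3 the Jchain difference was -1.11 with an adjusted p of 0.216. Igkc, at 0.57 to 6.75 CPM in KO hearts and 4.79 to 44.5 CPM in KO ECs within their own scaling, differed by -1.93 with an adjusted p of 0.124. Ighg2c was the only member with every KO heart above every KO EC library, at 149 to 264 counts against 6 to 11.

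Other genes of the B cell and antibody pathway, in 5 lists of 60 genes that were written with earlier results known, gave few calls in hearts. Of 37 kept by the filter, 3 were lower in KO (4.05% of all genes tested) and none was higher with edgeR or DESeq2 (2.66% with edgeR). Without adjustment 9 had a p under 0.05, for which no share over all genes is given here. The median log2 fold change was -0.10 beside -0.01 for all genes. Blk, a B cell Src-family kinase, was the only 1 of 6 B cell identity genes called, with 2.63 to 4.31 CPM in WT and 1.56 to 1.71 CPM in KO hearts (log2 fold change -1.08, SE 0.21, adjusted p = 0.00401). Pik3cd, the leukocyte PI3-kinase delta subunit, was the 1 of 11 receptor-signaling genes called (-1.14, SE 0.21, adjusted p = 0.00264), but not with length-scaled TPM (-0.79, adjusted p = 0.116). Slamf7, a plasma and natural killer cell surface receptor, was lower among 12 plasma cell genes (-1.81, SE 0.53, adjusted p = 0.0229), but adjusted p was 0.0546 and 0.0897 without KO heart 1 or 2 and 0.0624 with length-scaled TPM. It was 0.283 to 0.686 CPM in WT hearts and 0.0907 to 0.150 CPM in KO hearts.

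Of the 12 plasma cell genes kept in hearts, none was called higher in KO with edgeR or DESeq2, and 3 had an unadjusted p under 0.05. Xbp1, a secretory-program transcription factor with broad expression, was higher by 0.57 (SE 0.12, adjusted p = 0.00529), short of the fold criterion. Mzb1 and Prdm1, which mark plasma cells more closely, had log2 fold changes of -0.82 and -0.79 and did not pass. Tnfrsf17, the receptor BCMA, had 0 to 1 counts in WT hearts and 3 to 7 in KO hearts and was not kept by the filter. The list summed to 91.1 to 95.4 CPM in WT hearts and 103.6 to 135.6 CPM in KO hearts, of which Xbp1 alone was 36.6 to 41.8 and 51.3 to 69.9 CPM. The part of plasma cells in the Ighg2c counts was not tested.

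Among receptors for the antibody tail, none of 7 kept in hearts was called higher in KO with edgeR or DESeq2 (3 had an unadjusted p under 0.05). In ECs 1 of 9 kept was called higher, Fcgr2b, beside 5.39% of all genes tested. Fcgr3, the low-affinity activating IgG receptor, differed by 0.90 in hearts (SE 0.24, adjusted p = 0.0142) and 0.77 in ECs (SE 0.16, adjusted p = 0.0189). Its adjusted p was 0.0862 in hearts with the replicate block and 0.0522 to 0.166 in ECs in 4 of 12 alternatives. Fcer1g, the signaling chain shared by Fc receptors, differed by 0.59 in hearts (adjusted p = 0.0339) and exceeded 0.05 in 7 of 12 alternatives. Fcgr2b, the inhibitory IgG receptor, met both criteria in ECs (8.08 to 13.02 CPM in WT, 21.2 to 25.0 CPM in KO, log2 fold change 1.04, SE 0.19, adjusted p = 0.0143) and was at 0.53 in hearts (adjusted p = 0.0699). In ECs the Fcgr2b change was under 1 without EC WT 1 (0.85, adjusted p = 0.0193) or EC KO 1 (0.98, 0.0439), and adjusted p was 0.062 without EC KO 3 and 0.224 without both libraries that lack Ddx3y. Fcgrt, the neonatal receptor that recycles IgG, was at 0.12 and 0.06 and did not pass. The macrophage list, whose cells carry these receptors and which shares Fcgr1 with this list, summed to 154 to 226 CPM in WT and 249 to 421 CPM in KO hearts, and to 487 to 651 and 851 to 1336 CPM in ECs. Its part in the Fc receptor levels was not tested.

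In ECs 52 of the 60 genes were kept, and Fcgr2b was the only 1 called, while 5.39% of all genes tested were called higher. None was lower with edgeR (3.89% of all genes), and DESeq2 called 1 lower. Without adjustment 14 had a p under 0.05, for which no share over all genes is given here. The median was -0.12 beside -0.02 for all genes. Of 15 B cell identity genes, 13 had a log2 fold change below 0, among them Pax5 at -1.08 (adjusted p = 0.148), and none passed with edgeR (2 had an unadjusted p under 0.05). No share of all genes below 0 is given here, so nothing is read from the 13. Ighd, the IgD gene of naive B cells, was at -1.09 (adjusted p = 0.125). Xbp1 was higher by 0.58 (adjusted p = 0.0331, above 0.05 in 7 of 12 alternatives) and Sdc1, the plasma cell and epithelial syndecan, was at 0.88 (adjusted p = 0.0517).

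The difference between the tissues in the genotype effect was tested for these genes and the variable genes. Among them 2 had an adjusted p of at most 0.05 for the tissue by genotype interaction, where 28.8% of 15938 genes did (16.2% higher and 12.6% lower). Plcg2, the phospholipase downstream of the B cell receptor, was at -0.19 in hearts and 0.68 in ECs (interaction -0.84, SE 0.21, adjusted p = 0.00954), and it kept this in all 18 alternatives. Pim2, a survival kinase of plasma cells, was at 0.14 in hearts and -0.78 in ECs (interaction 0.96, SE 0.31, adjusted p = 0.0314), and it lost it in 11 of 18.

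Per length of transcript, Igkc led the members in ECs of both genotypes and in KO hearts, and Ighm led in WT hearts. In WT ECs Igkc was 59.3 ± 37.0 TPM, Ighm 29.9 ± 10.6 TPM and Igha 9.77 ± 7.88 TPM (SD, n = 3), followed by Jchain at 3.97 and Ighg2c at 3.69 TPM. Neighbors in this order differed by less than the SD of the higher one, except Ighm and Igha and, farther down, Cd79a (2.08 ± 0.53 TPM) and Ighg2b (1.33 ± 1.67 TPM). In WT hearts Ighm was 2.78 ± 0.70 TPM and Igkc 1.34 ± 0.86 TPM (SD, n = 4), and the other 8 members were at or below 0.177 TPM. In KO hearts Igkc was 8.88 ± 10.8, Ighg2c 7.68 ± 1.65 and Ighm 5.12 ± 3.10 TPM (SD, n = 3). Igkc and Ighg2c differed by less than the SD of Igkc, and the gap between Ighg2c and Ighm was larger than the SD of Ighg2c and smaller than that of Ighm.

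Genes outside the immunoglobulin loci with the most similar pattern over libraries were found by Pearson's r of log2(CPM + 0.5), which is given as a description. Over the 7 hearts, Igkc was followed most closely by Ttf2 (r = 0.988), Gmeb2 (0.976), Osbpl2 (0.966), Foxc2 (0.963) and Fkbp11 (0.952), the last a gene of the plasma cell list. Cd79a was followed by Pim1 (0.985), Srebf1 (0.980), Myrf (0.965), Klhl36 (0.937) and Nrde2 (0.936). Over the 6 ECs, Igkc was followed by Pira2 (0.997), Abcb1a (0.991), Tg (0.986), Ubtf (0.979) and Gm49510 (0.973), and Cd79a by Rnf166 (0.989), Srp54a (0.989), Npw (0.985), Carm1 (0.985) and Flt1 (0.983). Each value rests on 6 or 7 libraries that also differ in genotype and depth, and the genes were picked as the highest of all genes kept.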

How the data were processed

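RNA-seq libraries of aortic ECs (3 Hmox2+/+ and 3 Hmox2-/-) and whole hearts (4 and 3) were analyzed. The authors made oligo-dT-selected directional libraries and deposited, per transcript and library, estimated counts and TPM from Kallisto 0.44.0 with default parameters, which do not use the strand. The methods name a GENCODE mouse index, while the submitters' processing notes list mm10 and GRCh38.p13. The deposited TPM values were used only for comparisons between genes.

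Transcripts were matched by stable identifier to the GENCODE annotation of GRCm39 (115140 of 118489). Unmatched transcripts held 0.755% to 1.01% of counts and were left out. Estimated counts were summed per gene, rounded, filtered with filterByExpr (minimum count 10), scaled by TMM and tested with edgeR's quasi-likelihood F-test (edgeR 4.0.16, R 4.3.3) with Benjamini-Hochberg adjustment over all genes. Genes were called at an adjusted p not above 0.05 and a change of 1 or more on the log2 scale. Tissue contrasts were fitted within a genotype, and the interaction over all 13 libraries. Alternatives were DESeq2 1.42.0, upper-quartile scaling, length-scaled TPM, no filter, the IgG genes summed, a replicate block and leaving out each library. On counts simulated for each comparison, with 200 genes altered by 2 on the log2 scale, edgeR recovered 185 in hearts, 165 in ECs, 177 between WT tissues and 171 between KO tissues, with 7, 9, 7 and 14 false calls.

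Sequences are from GRCm39. Transcripts were compared by 31-base words. Intervals are 95% Wilson (shares) or exact (count ratios). Permutation tests used scipy 1.17.1, and figures matplotlib 3.10.9. Named genes were the 10 members, genes of fixed lists, the 3 variable genes with the most counts per library, the 5 genes most correlated with Igkc and with Cd79a, Hmox2 and Ddx3y, and genes that share at least 20% of their words with a member. Ighv11-1 and Igkv17-127 were added as copies of variable genes. The members and lists were chosen with earlier results of these data known. Which EC and heart libraries share a mouse is not in the labels, and the fits treat every library as independent. The labels give 4 WT heart libraries where the study's captions name 3 mice per strain, and all were used. Nothing says how each library relates to an animal, and p-values measure the spread between these samples. Some items are not reported here.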

Additional observations from a re-analysis of the deposited data

Results flagged for a closer look

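In WT hearts 1 library lay far from the other 3 for 2 of the 11 measures tested. Ighg2b had 3 counts in WT heart 2 and 0 in the others (gap over range 1.0). Cd79b was at 0 counts in WT heart 1, the shallowest library, beside 6 to 7 counts in the others (gap over range 0.876). Both cases rest on counts at or near 0, where the rate of such cases by chance is not known. In WT heart 1, 3 counts are 0.446 CPM, above the highest Cd79b level in WT hearts (0.242 CPM).

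The genotype difference of Plcg2 differed between hearts and ECs by -0.835 on the log2 scale (adjusted p = 0.00954), and that of Pim2 by 0.955 (adjusted p = 0.0314).

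Ighg2c moved in opposite directions in each library of the tissues. Its KO minus WT mean was 6.46 CPM in hearts and -2.72 CPM in ECs. The fit over all libraries gives an interaction for this gene, which is not used as a test because the genes were chosen on these contrasts and the WT hearts are at 0 counts.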

How the results depend on the processing

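Calls of members in the genotype contrasts, which are descriptive, changed with single libraries. Leaving out each library in turn gave 1 to 4 higher members in hearts (2 with all, 4 without KO heart 3) and 0 to 2 lower members in ECs (2 with all), with 0 in the opposite direction throughout. In ECs the lower count was 1 with the IgG genes summed, 1 with the replicate block and 0 without the libraries lacking Ddx3y, an alternative chosen after seeing the data. Between tissues, leaving out libraries gave 7 to 8 lower members in WT mice, with Ighg2c not counted, and 2 to 6 lower in KO mice (6 without KO heart 2). The higher count was 0 in WT and 1 in KO mice, where the 1 higher member with all libraries was Ighg2c. Of the members other than Ighg2c, 7 were lower in WT hearts under every alternative.

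Variable genes called higher in ECs numbered 1, but 0 with DESeq2 (which gave Igkv14-126 no adjusted p), 0 without the libraries lacking Ddx3y, 2 without a filter and 0 to 2 on leaving out libraries (0 to 1 lower). In hearts 1 was called higher without a filter (Igkv17-121, 21 counts in KO heart 2) and 0 on leaving out any library. Median variable genes per library fell from 57 to 11 in WT ECs and from 43 to 4 in KO ECs when at least 10 counts were required. Pathway genes called higher in ECs numbered 1, but 0 with length-scaled TPM, 0 without the libraries lacking Ddx3y and 0 to 2 on leaving out libraries. The lower count of 0 became 1 with DESeq2, 1 without a filter and 0 to 1 on leaving out libraries. In hearts the lower count of 3 became 1 with length-scaled TPM and 2 to 3 on leaving out libraries, with 0 to 2 higher. Interaction calls numbered 2, but 1 without a filter, with the replicate block or with upper-quartile scaling, and 1 to 4 on leaving out libraries. The KO minus WT membrane share of Ighm was -26.2 to -9.15 points in hearts and -20.7 to -1.03 points in ECs. The causes were not tested.

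Whether replicate numbers pair libraries is not settled within a tissue or between the WT tissues. Deviations of same-numbered libraries correlated at 0.065 to 0.214 in ECs and -0.068 to 0.101 in hearts. Between ECs and hearts they correlated at 0.007 to 0.099 in WT and -0.039 to 0.201 in KO mice. Not every library matched its own number best. EC KO 2 and 3 nearly lacked Ddx3y, which KO hearts 2 and 3 had, so these do not come from the same mice. Between KO tissues the replicate block thus joined libraries of different mice. The replicate block ended the calls of Igha in ECs (adjusted p = 0.0792), Jchain between KO tissues (0.0821) and Pim2 in the interaction (0.0751), and moved Fcgr3 and Fcer1g in hearts (0.0862, 0.142) and Pik3cd in ECs (0.0792) above 0.05.

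Depth limits WT heart 1 most, where 3 counts are 0.446 CPM, beside 0.088 to 0.115 CPM in the other 12 libraries. In hearts 7 of 10 members were below the filter.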

Other observations

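Antibody genes outside the 10 showed further library-specific patterns. EC KO 1, the library with the most Ighg2b (134 counts, 0% membrane form), was led by Igkv5-48 (57 counts) and Ighv8-12 (35 counts), both at 0 counts in EC KO 2 and 3 and at 18 and 3 counts in EC WT 2. Ighg3 had 28 counts in KO heart 2 and 0 in the other 2 KO hearts. The lambda genes took 7.61% to 17.8% of light-chain counts in WT ECs and 2.34% to 10.5% in KO ECs.

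Among genes that shape lymphoid tissue, Ccl21a, a chemokine that draws lymphocytes, was higher in KO hearts (14.97 to 20.2 CPM in WT, 34.7 to 49.3 CPM in KO, log2 fold change 1.2, edgeR adjusted p = 1.93e-04) and at 0.74 in ECs (adjusted p = 0.0628). Ccl21a has near-identical copies in the mouse genome, and its counts are uncertain for that reason. The B cell survival factor Tnfsf13b was at -0.01 in hearts and 0.77 in ECs (adjusted p = 0.991 and 0.084).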
